A study of Homo sapiens with 23 samples.

Results

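The 6 ErbB2* and 6 WT arrays of cells in 2D culture were compared across the whole array. They are 12 of the 23 arrays of the series and were chosen by their sample titles. Both lines are MCF10A, an immortalised human mammary epithelial cell line that does not form tumours, and total RNA was hybridised to 1 single-colour bead array per sample. The first group carried the label ErbB2* and the second the label WT. The labels state no time point, no treatment and no other allele for either group. They do not describe the ErbB2* construct, its promoter, or whether the line is a clone or a pool. With 1 line of each kind, the engineered gene and any other difference between the lines cannot be told apart. The labels do not state whether the replicates are separate cultures. The p-values below therefore cover only the variation among these arrays, part or all of which may be technical. ErbB2* and WT cells in 3D culture (6 and 4 arrays) were used to ask whether a difference seen in 2D was of the same size in 3D.

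ErbB2 is a receptor tyrosine kinase of the EGF receptor family that has no known ligand of its own and signals as a dimer with its relatives, mainly through the ERK and PI3-kinase pathways. Its gene is amplified in a subset of breast cancers. MCF10A cells grow as a sheet in flat culture and carry many features of the basal, outer cell layer of the breast duct, with basal keratins, hemidesmosomes that anchor them to the basement membrane, and a contractile actin cytoskeleton.

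Signals are given below on the log2 scale after normalisation, as the lowest, median and highest of the 6 arrays of a line, and changes as ErbB2* minus WT with their standard error (SE). Before normalisation, the mean signal over all probes was 390 to 582 on the ErbB2* arrays and 334 to 438 on the WT arrays. Between 15949 and 16491 probes were detected on the ErbB2* arrays, and between 15547 and 16871 on the WT arrays. The WT arrays fell into 2 sets, replicates 1, 5 and 6 against replicates 2, 3 and 4. Deviations from the WT mean correlated between 0.13 and 0.26 (Pearson's r across genes, which are not independent replicates) within a set and between -0.55 and -0.39 across sets, and between -0.38 and 0.09 for pairs of ErbB2* arrays. In 221 genes the set means differed by over 1 log2 unit, and 85.1% of these were lower in replicates 1, 5 and 6. No label or file header names what sets them apart. Of the 206 called genes chosen by rank or as the largest changes of their lists, 23 were no longer called without WT replicates 2, 3 and 4, and 8 without replicates 1, 5 and 6.

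**Figure D1:**
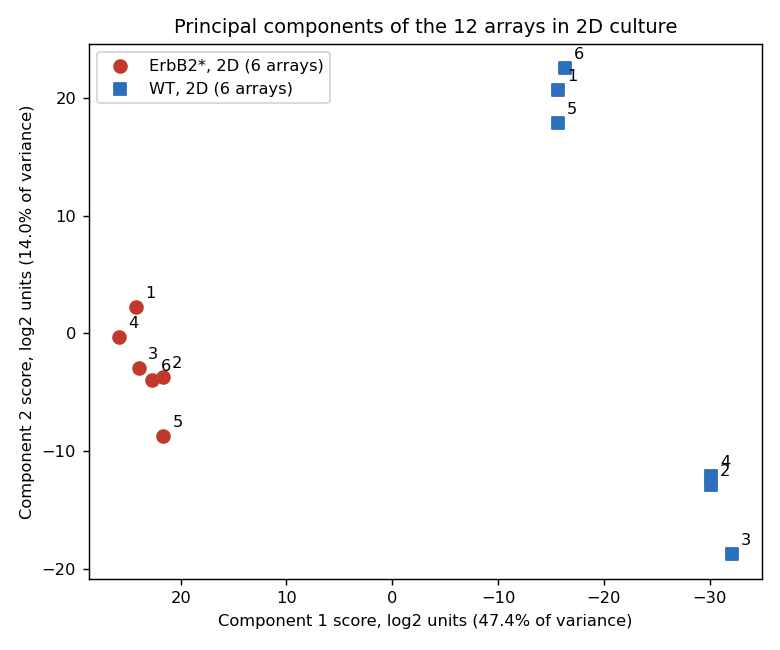
Principal components of the 12 arrays over all tested genes, ErbB2* as red circles and WT as blue squares, each point numbered by its replicate; the horizontal axis is drawn from high to low scores. Component 1 (47.4% of the variance) holds the lines apart and component 2 (14%) splits WT replicates 1, 5 and 6 from 2, 3 and 4.

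Of 10208 genes tested, 2201 (21.6%) differed between the lines at an adjusted p under 0.05 (limma, Benjamini-Hochberg), 1234 of them higher (12.1%) and 967 lower (9.47%) in ErbB2* cells. Most of these differences were small. The median absolute change was 0.60 among called genes and 0.20 among all genes, and the smallest called change was 0.23. At least 2-fold changes were called for 447 genes (4.38%), 245 higher and 202 lower, but this count depended on the processing and was 125 on the deposited log2 values, 199 without background correction and 692 without WT replicates 1, 5 and 6. Here, at least 4-fold changes were called for 50 higher and 30 lower genes. Genes were ranked by change only if they were called and their 6 and 6 arrays did not overlap, so ranked genes separate the lines by choice. The 40 genes ranked highest and lowest were called on the deposited values too, with changes that were 0.45 times as large at the median (0.28 to 1.0 times). In 1281 genes (12.5%) no ErbB2* array overlapped with any WT array, 730 of them higher (7.15%) and 551 lower (5.4%), and 1262 were called. The WT sets affected the number of calls: 1570 genes were called without WT replicates 2, 3 and 4, and 3229 without replicates 1, 5 and 6, of which 1326 and 1884 were among the 2201. Quantile normalisation put the median of all changes at 0.01. With median scaling of each array instead, that median was 0.22 and 83.9% of the called genes were higher, against 56.1% here, so directions of small changes hold relative to the typical gene only. Calls were spread over the range of signal, with genes split by mean signal into 4 equal groups, from 10.2% higher and 7.37% lower in the lowest group to 14% and 11.1% in the third group.

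**Figure D2:**
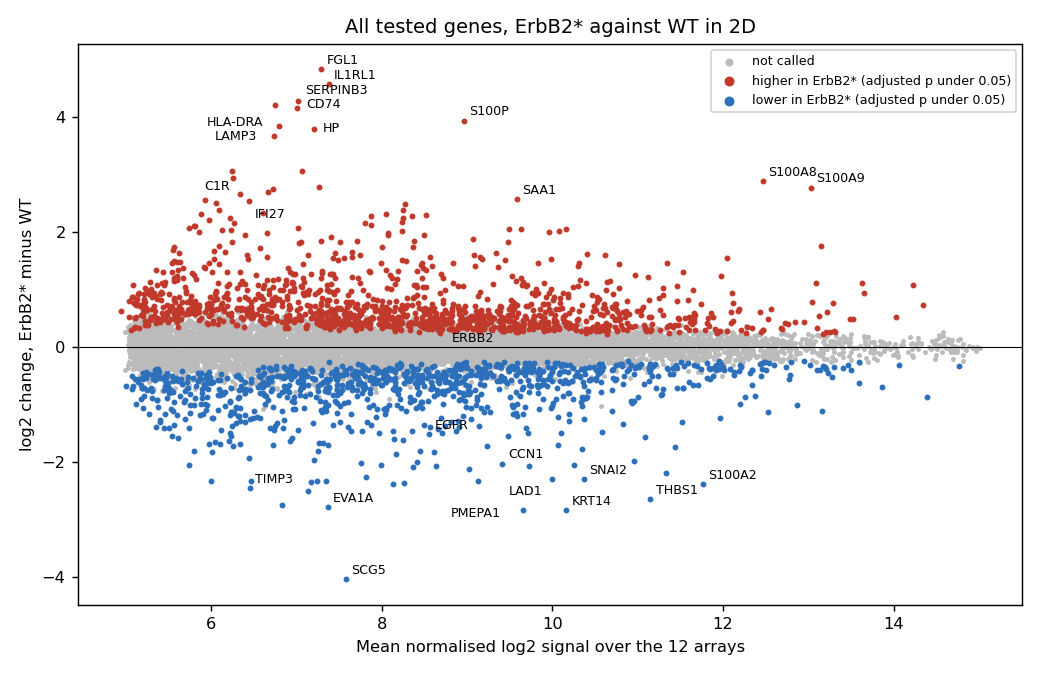
Change (log2, ErbB2* minus WT) against the mean normalised log2 signal over the 12 arrays for all 10208 tested genes; red and blue points are called higher and lower in ErbB2*, grey points are not called. The highest changes include FGL1 at 4.83 and S100P at 3.94, the lowest is SCG5 at -4.04, and ERBB2 lies at 0.

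ERBB2 itself did not separate the lines. Its brightest probe gave 8.59, 8.77 and 8.88 in ErbB2* cells, against 8.57, 8.76 and 8.98 in WT cells, a difference of -0.00 ± 0.09 (adjusted p = 0.979). The other ERBB2 probes were detected on 2 of the 12 arrays each. Whether any of these probes matches the engineered transcript is not known from the sources used here, so the level of ERBB2 checks nothing about the label.

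Genes for secreted proteins of the acute phase and of epithelial defence were higher in ErbB2* cells. Acute-phase proteins are made mainly by liver cells during inflammation, and several are also made by epithelia. Of 23 listed genes 11 passed the detection filter, and of these 10 rose and none fell (median change 2.51, against 0.01 over all genes). Over all tested genes 12.1% were called higher and 9.47% lower, shares that apply beside every list count below. FGL1, a fibrinogen-like protein secreted by hepatocytes and a ligand of the immune checkpoint receptor LAG3, gave 9.58, 9.61 and 10.01 in ErbB2* cells, against 4.64, 4.88 and 5.11 in WT cells. No WT array detected it, and the ErbB2* signal was at least 23.2-fold higher (change 4.83 ± 0.11, adjusted p = 1.61e-12). On the deposited log2 values the change was 2.28 for FGL1, and the bound applies to the processing used here. A fold written as at least a value is such a bound: where every array of a line was below background, it is the mean of the brighter line over the lowest signal that could be detected. FGL1 had 3 more probes, of which 2 changed by 4.33 and 3.26 and the third by -0.16. HP, haptoglobin, which binds free haemoglobin, gave 8.98, 9.12 and 9.18 in ErbB2* cells, against 4.85, 5.27 and 5.68 in WT cells (change 3.80 ± 0.13, adjusted p = 7.12e-11). SAA1, the inducible serum amyloid A, gave 10.77, 10.87 and 11.04 in ErbB2* cells, against 8.0, 8.37 and 8.56 in WT cells (change 2.58 ± 0.11, adjusted p = 6.17e-10). SAA2, its near-identical neighbour, was at least 4.43-fold higher, and the signals of this pair cannot be fully separated by probe.

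S100A8 and S100A9, which together form the antimicrobial protein calprotectin, were already bright in WT cells and rose further. S100A8 gave 13.77, 13.90 and 14.07 in ErbB2* cells, against 10.84, 11.03 and 11.15 in WT cells. S100A9 gave 14.30, 14.39 and 14.60 in ErbB2* cells, against 11.50, 11.65 and 11.76 in WT cells. The changes of 2.89 ± 0.09 and 2.78 ± 0.08 were close in size. The elastase inhibitor PI3 (change 1.56) and the defensin DEFB1 (change 0.72) also rose, and LYZ, lysozyme, was the tested member that was not called (change -0.12). S100P, a calcium-binding protein found in many carcinomas, rose by 3.94 ± 0.16 to 10.67, 10.95 and 11.21 in ErbB2* cells, against 6.46, 7.08 and 7.41 in WT cells. In the list of S100 proteins and annexins, S100P and S100A3 (0.76) rose and 7 of the 13 tested genes fell, with S100A2 at -2.38, S100A14 at -1.82 and ANXA8 at -1.39. S100A8, S100A9 and S100A4, which rose, were counted in other lists.

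The clade B serpins, intracellular protease inhibitors, split in direction. SERPINB3 and SERPINB4, the squamous cell carcinoma antigens, were below background on all WT arrays, and their lower bounds were 15.9-fold for SERPINB3 and 12.9-fold for SERPINB4. SERPINB3 gave 8.88, 9.17 and 9.36 in ErbB2* cells, against 4.65, 4.90 and 5.09 in WT cells. SERPINB4 gave 8.74, 8.86 and 8.99 in ErbB2* cells, against 4.51, 4.62 and 4.80 in WT cells. The lines were far apart for both, but the 2 genes are near-identical copies whose probes may share signal, and a second SERPINB3 probe changed by 1.29. On the deposited values SERPINB3 changed by 1.84. SERPINB5, maspin, fell by 1.12 on the log2 scale and SERPINB7 fell by 1.18.

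Other single genes among the 20 highest had varied roles. IL1RL1, the receptor of interleukin 33, gave 9.56, 9.63 and 9.87 in ErbB2* cells, against 4.70, 5.02 and 5.58 in WT cells, where 2 of 6 arrays detected it (change 4.57 ± 0.13, adjusted p = 6.95e-12). LAMP3, a lysosomal membrane protein known from mature dendritic cells, was at least 10.6-fold higher, with no WT array above background. C1QTNF1, a secreted relative of adiponectin, rose by 3.07 ± 0.12. SFTPB, surfactant protein B, rose by 2.69 ± 0.13, and PLAAT4, a phospholipase and acyltransferase, by 2.75 ± 0.15. KCTD14 rose by 2.79 ± 0.11. The rule of the ranking fixed that the arrays of these 6 genes do not overlap.

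**Figure D3:**
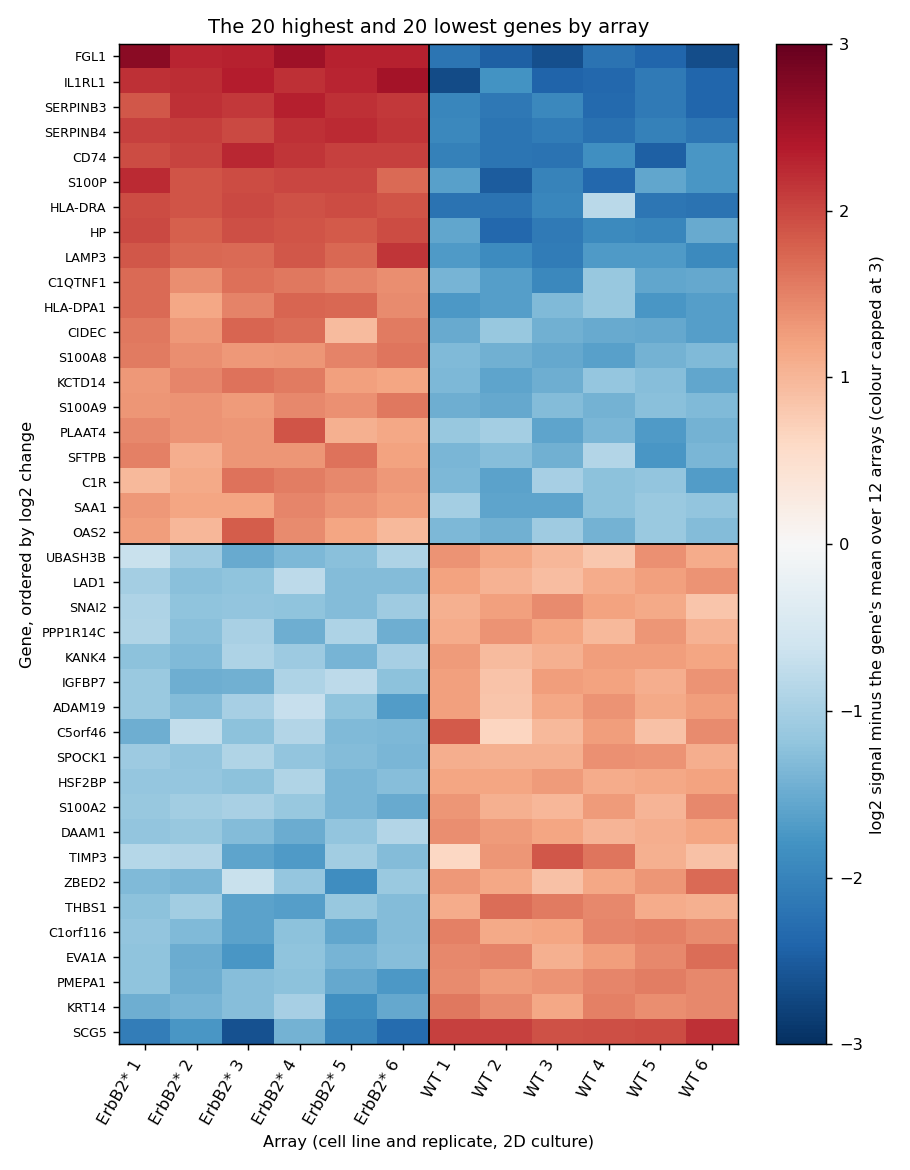
Log2 signal of the 20 highest and 20 lowest called genes on each of the 12 arrays, as the difference from the gene's own mean, with the ErbB2* arrays on the left and the WT arrays on the right; red is above the mean, blue below, and the colour is capped at 3. Every gene separates the 6 and 6 arrays because the ranking required it, and HLA-DRA on WT replicate 4 is the palest WT cell among the highest genes.

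Most tested genes of the MHC class II pathway were higher in ErbB2* cells. This pathway loads peptides from outside the cell onto surface molecules for helper T cells and is normally a property of professional antigen-presenting cells, although interferon gamma can turn it on in epithelia. Of 14 listed genes 7 passed the detection filter, 6 rose and none fell (median change 2.24). HLA-DRB1, HLA-DPB1, HLA-DQB1, HLA-DOA, CTSS and CIITA had probes on the array but did not pass. CD74, HLA-DRA and HLA-DMA were detected on 1 WT array each, and HLA-DPA1 and HLA-DMB on none. These genes therefore passed the filter through the ErbB2* arrays, where they were high. CD74, the invariant chain that guards the empty groove, gave 8.96, 9.06 and 9.27 in ErbB2* cells, against 4.55, 4.90 and 5.27 in WT cells (change 4.16 ± 0.12, adjusted p = 6.95e-12, and 1.77 on the deposited values). HLA-DRA, the constant chain of HLA-DR, gave 8.68, 8.73 and 8.77 in ErbB2* cells, against 4.59, 4.62 and 5.99 in WT cells (change 3.85 ± 0.20, adjusted p = 5.00e-09). The highest WT value was replicate 4, the 1 WT array that detected the gene. HLA-DPA1 was at least 6.12-fold higher. The peptide exchange factors HLA-DMA and HLA-DMB changed by 2.24 and 1.75, and IFI30, a thiol reductase of the endosome, by 0.83. For HLA-DMB, undetected in WT cells, the bound was at least 2.41-fold. HLA-DRB4 was not called (change 0.21), and since HLA genes are alike and vary between people, a probe may read a relative or miss an allele.

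The interferon-response list rose in 28 of its 35 tested genes and fell in none (median change 1.08). These genes are switched on by type I or type II interferon through STAT and IRF factors, and many act against viral RNA. OAS2, an enzyme that senses double-stranded RNA, gave 6.90, 7.15 and 7.74 in ErbB2* cells, against 4.49, 4.60 and 4.86 in WT cells, where no array detected it (at least 4.10-fold higher). IFI27 gave 7.39, 7.78 and 8.12 in ErbB2* cells, against 4.99, 5.14 and 5.53 in WT cells (change 2.54 ± 0.13, adjusted p = 4.91e-09). IFITM1, a membrane protein that blocks viral entry, gave 8.92, 8.99 and 9.13 in ErbB2* cells, against 6.35, 6.77 and 7.02 in WT cells. The spread was wider for the transcription factor IRF1, at 9.48, 9.67 and 9.85 in ErbB2* cells, against 6.07, 7.66 and 8.44 in WT cells (change 2.31 ± 0.38, adjusted p = 0.000509). The WT arrays of IRF1 followed the 2 WT sets, with 8.20 to 8.44 in replicates 1, 5 and 6 and 6.07 to 7.13 in replicates 2, 3 and 4, and the change was 1.38 without replicates 2, 3 and 4 and 3.23 without replicates 1, 5 and 6. Changes varied within the list: ISG15 rose by 0.64, MX1 by 1.34 and IFIT3 by 1.83, while IFIT1 (0.15), OAS3 (0.31), IFIT5 (0.42) and SAMD9 (-0.13) were not called.

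Antigen processing for MHC class I, which cuts cytosolic proteins and loads the peptides for killer T cells, rose in 15 of 19 tested genes and fell in 1 (median change 0.65). PSMB9, an immunoproteasome subunit, gave 6.81, 7.26 and 7.62 in ErbB2* cells, against 4.94, 5.01 and 6.15 in WT cells, and WT replicate 5 alone was above background. The peptide transporter subunit TAP1 gave 10.93, 11.04 and 11.12 in ErbB2* cells, against 9.28, 9.62 and 9.75 in WT cells (change 1.46 ± 0.10, adjusted p = 4.42e-08). HLA-B rose by 1.63, HLA-F by 1.39, PSMB8 by 1.11 and B2M, the common light chain, by 0.49. CALR, a chaperone of the same pathway that also serves the whole endoplasmic reticulum, fell by 0.80. The constitutive proteasome did not share this pattern: 2 of its 26 tested subunits were called higher (PSMA3 by 0.32 and PSMA6 by 0.29), none lower, and the median change was 0.00. Neither call held without WT replicates 1, 5 and 6, and PSMA3 was called in 14 of 26 alternatives.

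Promoter letters of these genes are shown because the interferon and antigen-processing genes moved together. RefSeq promoter sequence (GRCh38.p14) was at hand for 8399 of the 10208 tested genes, and the 250 bases before each start were searched on both strands for an interferon-type element, GAAA followed by any 2 letters and a further GAAA. It was found in 17 of 28 promoters of the interferon list and 7 of 17 of the class I list. For comparison, 3.073% of all 27305 promoters in the table held it, as did 2.369% of the promoters of tested genes, 4.606% of those of genes higher in ErbB2* cells and 0.893% of those of genes lower. A match describes the letters only and is neither a bound site nor a cause. The interferon list was made of genes that respond to interferon, so its share of matches describes the list and not these arrays. IFIT1, IFIT5, OAS3 and SAMD9 held a match and were not called. The windows are IFI27 (chr14:94110616-94110662, plus strand), IFIT3 (chr10:89327829-89327896, plus strand), PARP14 (chr3:122680798-122680831, plus strand), TAP1 (chr6:32853811-32853850, minus strand) and CXCL10 (chr4:76023697-76023730, minus strand). Each is written along its gene, and capitals mark the matches, which read as TTTC repeats where they lie on the other strand.
IFI27: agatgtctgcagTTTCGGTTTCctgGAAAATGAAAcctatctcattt
IFIT3: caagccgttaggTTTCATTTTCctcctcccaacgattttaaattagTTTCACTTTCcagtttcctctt
PARP14: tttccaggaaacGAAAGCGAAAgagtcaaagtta
TAP1: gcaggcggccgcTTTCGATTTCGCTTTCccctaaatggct
CXCL10: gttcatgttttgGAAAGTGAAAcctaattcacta
IFI27 and IFIT3 hold 2 matches each with different central letters, and in TAP1 the 2 matches overlap and share a TTTC. PARP14, an ADP-ribosyltransferase, rose by 1.56.

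Chemokines and cytokines rose in 7 of 14 tested genes and fell in 1 (median change 0.35). CXCL10, which attracts T cells, was at least 3.67-fold higher, with 6.63, 7.12 and 7.36 in ErbB2* cells, against 4.60, 4.69 and 4.95 in WT cells. CCL2, which attracts monocytes, was at least 2.36-fold higher. Neither was detected on any WT array. IL6 gave 7.78, 7.93 and 8.15 in ErbB2* cells, against 5.61, 6.17 and 6.50 in WT cells (change 1.82 ± 0.14, adjusted p = 3.18e-07), and CXCL2 rose by 1.60. The neutrophil chemokines CXCL1 (0.25) and CXCL8 (0.10) were not called, and IL1A fell by 0.40. Among NF-kB subunits and feedback genes 7 of 18 rose and none fell, with a median change of 0.03. Those that rose were mostly feedback inhibitors and targets: SOD2 (1.56), TNFAIP2 (1.08), NFKBIZ (1.07), NFKBIA (0.75), TNFAIP3 (0.72), BCL3 (0.59) and TNIP1 (0.51). The subunits NFKB1 (0.03), NFKB2 (-0.24), RELB (-0.26) and RELA (-0.50) were not called.

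In the complement and coagulation list 8 of 15 tested genes rose and 3 fell (median change 0.31). Among complement genes C1R changed by 2.67 ± 0.14, CFB by 2.39 ± 0.09 and C1S by 2.08 ± 0.14, although a second C1S probe changed by 0.71. CFB gave 9.28, 9.40 and 9.71 in ErbB2* cells, against 6.92, 7.06 and 7.15 in WT cells. The complement inhibitors CFI (0.94), CD55 (0.31) and CD59 (0.29) rose, as did the anticoagulant proteins TFPI (0.82) and PROS1 (0.76), and C3 was not called (change 0.42). The 3 that fell were PLAU, F3 and PLAT: PLAU, urokinase, at 9.17, 9.57 and 9.61 in ErbB2* cells, against 11.07, 11.23 and 11.47 in WT cells, fell by 1.77, the initiator of clotting F3 fell by 1.50, and PLAT, tissue plasminogen activator, fell by 1.45.

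Because several of these genes are known from blood cells, markers of other cell types were read on the same arrays. The 10 leukocyte markers on the array had a summed linear signal of 3742 to 4313 in ErbB2* cells and 1466 to 1765 in WT cells. The 4 that passed the filter all rose: CD14, the endotoxin co-receptor, by 2.05, the actin bundler LCP1 by 1.64, LAPTM5 by 1.10 and CD68 by 0.53. The defining leukocyte genes ITGAM and TYROBP were detected on no array of either line, and PTPRC and CD3E on none of the ErbB2* arrays and 1 WT array each. Of the 8 fibroblast markers DCN rose by 0.77, with a summed signal of 5736 to 6313 in ErbB2* cells and 3523 to 3736 in WT cells, while COL1A2, COL3A1, LUM and THY1 were detected on no array. Among 7 endothelial markers PECAM1 rose by 0.69, CDH5 and VWF were detected nowhere, and the summed signal was 293 to 336 in ErbB2* cells and 219 to 319 in WT cells. Among 6 adipocyte markers CIDEC and FABP4 rose and ADIPOQ and PLIN1 were detected nowhere (summed signal 381 to 488 in ErbB2* cells and 184 to 251 in WT cells). In bulk RNA, fewer cells of a type and less RNA per cell cannot be told apart. The epithelial identity of both lines was clear from KRT5, KRT8, KRT18 and EPCAM on every array, but of the 6 tested epithelial markers 4 fell and 1 rose, and their summed signal was 5112 to 6367 in ErbB2* cells, against 11309 to 14679 in WT cells.

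Basal epithelial genes were lower in ErbB2* cells. Of 12 tested basal markers 9 fell and 1 rose (median change -1.02). KRT14, the keratin that pairs with keratin 5 in basal cells, gave 8.32, 8.73 and 9.16 in ErbB2* cells, against 11.32, 11.59 and 11.74 in WT cells (change -2.83 ± 0.13, adjusted p = 9.55e-10). SNAI2 is a zinc-finger repressor counted here as a basal marker. It gave 9.07, 9.17 and 9.44 in ErbB2* cells, against 11.20, 11.53 and 11.79 in WT cells (change -2.30 ± 0.10, adjusted p = 1.09e-09). TAGLN, an actin-binding protein of contractile cells, gave 7.02, 7.40 and 7.68 in ErbB2* cells, against 8.94, 9.39 and 9.76 in WT cells. KRT5 fell less than its partner, by 0.99, CDH3 (P-cadherin) fell by 1.46, and VIM fell by 0.30. KRT15 (0.29) and ACTA2 (0.14) were not called, and MME rose by 0.67.

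Simple epithelial and luminal markers did not move as a group: of 10 tested 2 rose and 4 fell. MUC1 gave 12.42, 12.58 and 12.87 in ErbB2* cells, against 11.03, 11.40 and 11.60 in WT cells, and KRT8 rose by 0.67, while its partner KRT18 was not called (-0.07). CD24 gave 7.25, 7.70 and 7.87 in ErbB2* cells, against 9.55, 9.66 and 9.84 in WT cells, and EPCAM 9.12, 9.23 and 9.34 against 10.82, 10.93 and 11.05. A second probe changed by -1.02 for CD24 and by -0.13 for EPCAM, so the size of the EPCAM change rests on its brighter probe. KRT7 fell by 1.0. Of 8 squamous differentiation genes 3 fell and none rose, with KRT16 at -1.06 and KRT80 at -0.75.

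Most tested genes for the anchorage of basal cells to the basement membrane had lower RNA in ErbB2* cells. Of 17 tested laminin, collagen IV and VII and hemidesmosome genes 10 fell and 2 rose (median change -0.62). LAD1, ladinin of the anchoring filaments, gave 8.68, 8.77 and 9.20 in ErbB2* cells, against 10.91, 11.16 and 11.34 in WT cells (change -2.29 ± 0.11, adjusted p = 1.61e-09). COL7A1, the anchoring fibril collagen, gave 7.02, 7.24 and 7.72 in ErbB2* cells, against 9.20, 9.43 and 9.61 in WT cells. LAMB3, a chain of laminin 332, fell by 1.73, but its other probes changed by -0.41 and -0.35. The hemidesmosome integrin chains ITGA6 and ITGB4 fell by 1.06 and 0.76. ITGA3 (0.50) and LAMA5 (0.64) rose. Of 8 other integrins 5 fell and 1 rose, with ITGB6 at -0.95 and ITGB2 at -0.83. ITGA2, 1 of the 5, was called in 15 of 26 alternatives. Neither ITGA2 nor ITGA10, the 1 that rose, was called without WT replicates 2, 3 and 4.

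Matrix genes outside the basement membrane fell in 8 of 15 tested members and rose in 4 (median change -0.78). THBS1, thrombospondin, a matricellular activator of latent TGF-beta, gave 9.50, 9.89 and 10.11 in ErbB2* cells, against 12.21, 12.42 and 12.81 in WT cells (change -2.64 ± 0.14, adjusted p = 5.00e-09). COL8A1 gave 8.50, 9.34 and 9.64 in ErbB2* cells, against 10.96, 11.19 and 11.80 in WT cells. POSTN, periostin, was detected on no ErbB2* array and on every WT array, and its WT signal was at least 3.02-fold the ErbB2* signal. Against this, TNC, tenascin C, rose by 1.20, FBN2 by 0.86, DCN by 0.77 and LOX by 0.35. Among 15 proteases and inhibitors 6 fell and 1 rose. TIMP3, a metalloprotease inhibitor bound to matrix, had the widest spread of the 20 lowest genes, at 4.75, 5.28 and 5.61 in ErbB2* cells, against 7.08, 7.64 and 8.31 in WT cells, and 3 of 6 ErbB2* arrays detected it.

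Genes of cell junctions and the actin cytoskeleton moved in 1 direction only among called members. Among the 19 tested genes of junctions and polarity, 11 were lower and 0 higher (median change -0.54). CLDN1, a tight junction claudin, gave 5.81, 5.99 and 6.53 in ErbB2* cells, against 7.12, 7.43 and 7.65 in WT cells. CRB3, an apical polarity protein, fell by 1.24, JUP by 1.04, E-cadherin (CDH1) by 1.04 and the desmosomal cadherins DSC3 and DSG3 by 0.94 and 0.83. CTNNB1 (-0.60), DSP (-0.34) and CLDN7 (0.28) were not called. Of 20 contractile actin and focal adhesion genes 14 fell and none rose (median change -0.62), and 7 fell with median scaling of the arrays. LIMA1, an actin crosslinker, gave 7.27, 8.07 and 8.28 in ErbB2* cells, against 9.10, 9.34 and 9.82 in WT cells, and PALLD gave 8.79, 8.97 and 9.36 against 10.16, 10.41 and 10.59. Tropomyosins TPM4 and TPM1 fell by 0.94 and 0.84 and the myosin heavy chain MYH9 by 0.65, while ZYX (0.14), VCL (-0.17) and TLN1 (-0.08) were not called.

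YAP and its DNA-binding partner TEAD are a pair of factors that respond to cell tension. In the list of their targets and regulators 10 of 17 tested genes fell and none rose (median change -0.46). CCN1 gave 8.05, 8.45 and 8.60 in ErbB2* cells, against 10.22, 10.39 and 10.71 in WT cells (change -2.02 ± 0.12, adjusted p = 1.27e-08). CCN2 gave 9.54, 9.82 and 10.19 in ErbB2* cells, against 11.17, 11.33 and 11.49 in WT cells (change -1.48 ± 0.11, adjusted p = 1.41e-07). Neither gene's arrays overlapped. AXL, a receptor tyrosine kinase, fell by 1.37, and NUAK2 by 1.10. The regulators YAP1 (-0.31), WWTR1 (-0.08), TEAD1 (0.03), TEAD4 (0.35) and LATS2 (0.07) were not called. The CCN2 promoter is shown for its repeats of the TEAD letters GGAATG (RefSeq, GRCh38.p14, chr6:131951450-131951553, minus strand, written along the gene, matches in capitals).
CCN2: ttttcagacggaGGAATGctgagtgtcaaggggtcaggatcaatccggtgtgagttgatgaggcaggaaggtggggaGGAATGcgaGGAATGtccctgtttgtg
It held 3 matches. The letters occurred in 4 of 11 promoters of the list, in 11.895% of all promoters, in 9.513% of those of tested genes, in 10.133% of those of genes higher in ErbB2* cells and in 11.607% of those of genes lower.

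Signalling genes that act between cells were mixed, against shares of 12.1% higher and 9.47% lower over all tested genes. For the WNT pathway 7 of 16 tested genes fell and 1 rose. The secreted inhibitors SFRP1, at 10.12, 10.24 and 10.36 in ErbB2* cells, against 12.08, 12.47 and 12.75 in WT cells, and DKK1, at 10.22, 10.29 and 10.47 against 11.62, 11.91 and 12.16, fell alongside the ligands WNT5A (-1.40), WNT7B (-0.88) and WNT7A (-1.16). Of 16 TGF-beta genes 5 fell and 2 rose. PMEPA1, which is induced by TGF-beta and restrains its signal, gave 7.92, 8.27 and 8.45 in ErbB2* cells, against 10.93, 11.08 and 11.19 in WT cells (change -2.83 ± 0.10, adjusted p = 1.10e-10). The binding protein FSTL3 (-1.02), the inhibitors SMAD7 (-0.69) and SKIL (-0.71) also fell, TGFB3 (0.87) and SMAD6 (0.71) rose, and SMAD2, SMAD3 and SMAD4 lay between -0.12 and -0.04 without a call. In the Notch list 4 of 10 fell and 2 rose, with DLK2 at -1.67 and NOTCH3 at 1.12, and among 8 BMP and ID genes 1 fell (ID3, -1.12) and 1 rose (ID1, 0.31, not called without either WT set). Of 9 EMT factors and mesenchymal markers 5 fell and 1 rose. The ectonucleotidase NT5E (-1.16) and CDH11 (-0.89) were among those that fell, S100A4 rose by 0.94, and ZEB1, ZEB2 and TWIST1 were not called. No ErbB2* array detected CDH11, and its WT signal was at least 1.50-fold the ErbB2* signal.

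In the ErbB family EGFR fell while a feedback inhibitor rose. EGFR gave 7.67, 7.73 and 8.10 in ErbB2* cells, against 8.91, 9.33 and 9.55 in WT cells (change -1.51 ± 0.12, adjusted p = 3.01e-07). ERRFI1, which binds and silences active ErbB kinases, gave 12.02, 12.07 and 12.12 in ErbB2* cells, against 10.49, 10.62 and 10.71 in WT cells (change 1.46 ± 0.07, adjusted p = 2.43e-09). The arrays of neither gene overlapped. The ligands NRG4 (1.18) and BTC (0.73) rose, HBEGF (-0.65) and TGFA (-0.57) fell, and EREG (0.34), ERBB3 (-0.23) and ERBB4 (-0.24) were not called. Downstream, ERK feedback and output genes rose in 5 of 22 and fell in 4, against 12.1% higher and 9.47% lower over all tested genes. The higher count was 3 without ErbB2* replicate 1 or WT replicate 4, and the lower count 2 without ErbB2* replicate 4 or WT replicate 2 or 3. SPRY1, a feedback inhibitor of ERK signalling, gave 8.36, 8.50 and 8.84 in ErbB2* cells, against 6.51, 7.0 and 7.26 in WT cells, whereas DUSP7, an ERK phosphatase, gave 5.02, 5.36 and 5.78 against 6.35, 6.99 and 7.81. DUSP6 (0.42), SPRY2 (0.39) and MYC (0.34) rose by little, and EGR1 (-0.14), ETV4 (0.16), ETV5 (0.20), CCND1 (-0.10) and FOSL1 (-0.43) were not called. Of 12 AP-1 and immediate early genes FOS rose by 0.64, while JUN (-0.68), KLF4 (-0.86) and KLF6 (-0.54) fell. With each WT set left out, 6 and 5 of these 12 fell in place of 3.

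Enzymes of steroid, aldehyde and drug metabolism rose in 10 of 18 tested genes and fell in 2 (median change 0.37). AKR1B10, an aldo-keto reductase, gave 8.51, 8.97 and 9.13 in ErbB2* cells, against 6.44, 6.78 and 7.14 in WT cells (change 2.13 ± 0.13, adjusted p = 2.48e-08). ABCC2, an export pump for conjugates, gave 9.22, 9.45 and 9.78 in ErbB2* cells, against 7.45, 7.54 and 7.58 in WT cells. AKR1C3 rose by 1.13, and ALDH1A3 and HSD17B2 fell by 1.02 and 0.81. Of 24 genes of the NRF2, redox and glutathione list 8 rose and 2 fell: FTL, ferritin light chain, by 1.08, NQO1 by 0.67 and TXNRD1 by 0.58, while the common NRF2 targets HMOX1 (0.22), GCLM (0.11), GCLC (0.06) and SRXN1 (0.13) were not called. Of 6 metallothioneins MT1F (1.20), MT1H (1.08) and MT1X (0.52) rose.

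Lipid and glucose genes rose more often than they fell. Of 25 fatty acid and lipid droplet genes 10 rose and 3 fell. CIDEC, which fuses lipid droplets, was at least 5.87-fold higher on its brighter probe, and its second probe changed by 0.53. PPARG, the transcription factor of fat cell differentiation, gave 10.22, 10.40 and 10.58 in ErbB2* cells, against 8.34, 8.58 and 8.82 in WT cells (change 1.82 ± 0.10, adjusted p = 9.82e-09). The acyl-CoA synthetases ACSL1 and ACSL4 rose by 1.47 and 1.30 and SREBF1 by 1.07, whereas FASN (0.24) was not called and CPT1A fell by 0.50. In sterol synthesis 8 of 18 genes fell and INSIG1 rose, but the median of -0.24 was -0.02 with median scaling, where 1 gene fell, and 4 fell without WT replicates 2, 3 and 4. Leaving out any 1 of ErbB2* replicates 1, 2, 3 and 6 or WT replicates 1, 2, 3 and 6 gave 4 or 5 lower sterol genes. Of 27 hypoxia and glycolysis genes 10 rose and 1 fell. The glucose transporter SLC2A3 gave 8.91, 9.07 and 9.16 in ErbB2* cells, against 6.50, 7.16 and 7.45 in WT cells, ADM rose by 1.14 and ALDOC by 1.08, and GAPDH (0.20), LDHA (0.17), PGK1 (0.21) and VEGFA (0.11) were not called.

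Of 11 tested genes that respond to glucocorticoid hormone 8 rose and 1 fell (median change 0.70). MAOA, monoamine oxidase A, gave 11.07, 11.20 and 11.33 in ErbB2* cells, against 8.79, 9.18 and 9.43 in WT cells (change 2.07 ± 0.12, adjusted p = 1.21e-08). The transcription factor KLF9 rose by 1.52, ZBTB16 by 0.71 and FKBP5 by 0.62, while TSC22D3 (0.17) was not called and SGK1 fell by 1.20. In the list linked to FOXO factors and quiescence 7 of 13 rose and 1 fell (median change 0.49). PDK4, which shuts pyruvate out of the citrate cycle, gave 7.10, 7.43 and 7.74 in ErbB2* cells, against 5.19, 5.79 and 6.12 in WT cells. TXNIP rose by 1.46 and BCL6 by 1.05, and IRS2 fell by 1.30. KLF9 belongs to both lists, and ERRFI1 and NFKBIA of the glucocorticoid list were also counted in the ErbB and NF-kB lists. Other genes counted in more than 1 list include EGFR, AXL, F3, ITGA6 and ITGB4, so the lists are not independent. The amino acid response had 5 of 21 genes higher and 3 lower: PHGDH, of serine synthesis, rose by 0.92, while the paired transporter chains SLC3A2 and SLC7A5 fell by 0.89 and 0.84.

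Few growth genes were called. The shares over all tested genes were 12.1% higher and 9.47% lower. Of 33 mitosis genes 2 rose (BUB1B by 0.38 and NUSAP1 by 0.30) and 1 fell (CDCA8 by 0.38), with MKI67 at -0.12 and CCNB1 at -0.05 and a median change of 0.00. None of these 3 mitosis calls held without WT replicates 2, 3 and 4. Without ErbB2* replicate 6 or WT replicate 2 or 4, 1 mitosis gene was higher and 0 lower, and without WT replicate 6, 4 were higher and 2 lower. Of 29 DNA replication genes 1 rose and 3 fell, and of 16 G1 cyclins and inhibitors 2 rose and CDK6 fell (-0.91). Of 39 ribosomal protein genes RPL28 alone was called (0.52), but not without WT replicates 2, 3 and 4, and of 18 ribosome biogenesis genes 1 rose and 1 fell. Of 29 oxidative phosphorylation genes 5 were called higher, each by 0.37 or less, and none lower. That count was 1 without ErbB2* replicate 4 or WT replicate 2, 2 without ErbB2* replicate 1 or 2, and 3 without ErbB2* replicate 3 or WT replicate 3 or 5. Among 18 endoplasmic reticulum chaperones and folding factors 5 fell and none rose, with HYOU1 at -0.74 (-0.31 and not called without WT replicates 2, 3 and 4) and HSP90B1 at -0.40, but the list's median of -0.14 was 0.06 with median scaling. Of 15 heat shock genes 2 fell (DNAJB1 by 0.90 and HSPA1A by 0.38), HSPA1A not without WT replicates 2, 3 and 4.

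The remaining lists were small or mixed, against shares of 12.1% higher and 9.47% lower over all tested genes. Of 15 p53 targets 2 rose and 4 fell, with GDF15 at 1.01, SFN, the 14-3-3 sigma checkpoint protein, at -1.33 and GADD45A at -0.92, and CDKN1A (-0.03) and MDM2 (-0.31) not called. Of 14 BCL2-family genes BNIP3L (0.51) and BNIP3 (0.50) rose and BAD (-0.53) fell. Of 20 lysosome and autophagy genes 5 were called higher and 1 lower, with TPP1 at 0.90 and SQSTM1 at 0.52. The higher count was 2 without ErbB2* replicate 1 or 3 or WT replicate 6, and 3 without ErbB2* replicate 2, 4 or 5 or WT replicate 1, 2, 3 or 5. Of 13 histone genes 5 rose and none fell, up to 0.71 for H2AC18. Of 16 solute transporters 5 rose, led by the zinc carrier SLC39A8 (1.11), and SLC1A5 fell (-0.65). The 12 tetraspanins split with 4 higher and 4 lower, and TSPAN5 had the largest change of them at -2.05 ± 0.20. Of 10 mucin and glycosylation genes 2 fell and none rose.

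**Figure D4:**
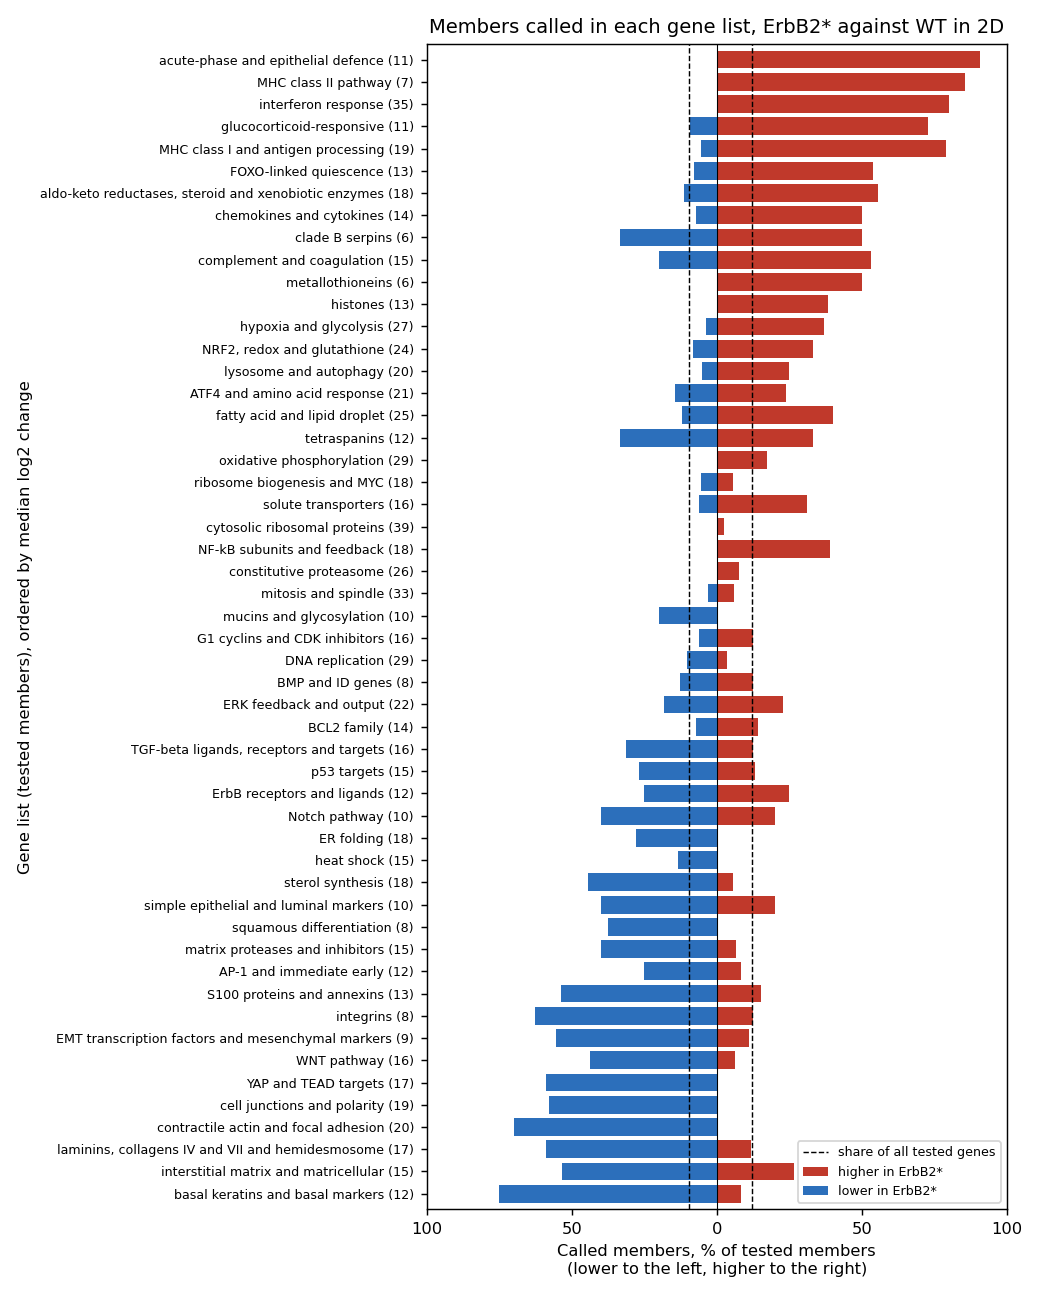
Share of the tested members of each gene list (number in brackets, lists with at least 6) called higher in ErbB2* cells (red, to the right) or lower (blue, to the left), ordered by median log2 change; dashed lines mark 12.1% and 9.47%, the shares over all tested genes. Acute-phase, MHC class II and interferon genes stand at the top and basal, matrix and hemidesmosome genes at the bottom.

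All these counts cover members that passed the detection filter. A gene detected in 1 line alone entered the test through that line and had to differ, so the counts describe the lists and are not support for them.

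Several of the 20 lowest genes belong to none of the lists. SCG5, the chaperone 7B2 of the prohormone convertase PCSK2, had the lowest change of the called genes without overlap, at 4.97, 5.57 and 6.16 in ErbB2* cells, against 9.50, 9.59 and 9.77 in WT cells (change -4.04 ± 0.16, adjusted p = 3.49e-10). EVA1A, a regulator of autophagy, gave 5.61, 6.02 and 6.16 in ErbB2* cells, against 8.43, 8.80 and 9.03 in WT cells. DAAM1, a formin of the planar polarity branch of WNT signalling, gave 6.63, 6.96 and 7.26 in ErbB2* cells, against 9.14, 9.31 and 9.53 in WT cells. In all 3 genes every ErbB2* array lay below every WT array, which the ranking required. C1orf116 fell by 2.74 on its brightest probe, and its other probes changed by -0.92 and -1.90. The zinc-finger factor ZBED2 fell by 2.50, HSF2BP, a protein of meiotic recombination, by 2.37, the proteoglycan SPOCK1 by 2.34, C5orf46 by 2.33, the metalloprotease ADAM19 by 2.33, IGFBP7 by 2.33, KANK4, an adaptor of adhesion sites, by 2.33, the phosphatase inhibitor PPP1R14C by 2.32 and the tyrosine phosphatase UBASH3B by 2.26. None of these 9 had overlapping arrays, again by the rule of the ranking.

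Some genes crossed the detection limit. There were 43 genes with a probe detected on all 6 ErbB2* arrays and on no WT array, and 17 genes with the reverse. The examples that follow were chosen after their values were seen. On the ErbB2* side they included PDZK1IP1 (at least 3.75-fold), AUTS2 (at least 3.22-fold), SYN2, a synaptic vesicle protein (at least 3.04-fold), the B-lineage factor EBF1 (at least 2.42-fold), the endotoxin receptor TLR4 (at least 2.22-fold) and the chemokine receptor CXCR4 (at least 1.81-fold). TLR4 and its co-receptor CD14 were thus both higher in ErbB2* cells. Genes detected in WT cells alone were, beside POSTN, the exchange factor MCF2 (WT at least 2.91-fold the ErbB2* signal), CLIC3 (at least 2.35-fold), the carboxypeptidase CPA4 (at least 2.21-fold) and the antimicrobial RNASE7 (at least 2.10-fold).

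Called genes lay on every chromosome. Between 9.33% (chromosome 18) and 18.2% (chromosome 21) of a chromosome's tested genes were higher, and between 6.36% (chromosome 21) and 14.7% (chromosome 18) were lower. Chromosomes 18 and 21 had the fewest tested genes, 150 and 110, and the median change per chromosome stayed between -0.02 and 0.07.

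Whether a change seen in 2D had the same size in 3D was tested as an interaction of line and culture on 22 arrays. One WT 3D array (replicate 5) has labels that name different lines and was left out. It was also dim, with a mean signal of 151 before normalisation and 9329 probes detected. The other WT 3D arrays had mean signals of 395 to 483 and 15357 to 16514 probes detected. The difference between the ErbB2* effects was called for 2324 genes (22.8%) and ErbB2* against WT in 3D for 2913 genes (28.5%). Of the 2201 genes called in 2D, 834 were called in 3D with the same sign, 244 with the opposite sign and 1123 were not called in 3D, and the interaction was called for 1069 of the 2201. Of the 40 ranked genes 34 differed between the cultures by this test, against 22.8% of all tested genes. The ranked genes were chosen by their 2D change and the test uses the same 2D arrays. A high share is therefore favoured by the choice and is not support for culture dependence of these genes as a group. SERPINB4 changed by 4.18 in 2D and 0.06 in 3D in this fit (difference 4.13, adjusted p = 8.87e-18), and its 3D signals were 4.60 ± 0.12 in ErbB2* cells (SD, n = 6) and 4.55 ± 0.08 in WT cells (SD, n = 4). FGL1, SERPINB3 and LAMP3 had the same pattern, with mean 3D signals between 4.68 and 4.83 in both lines, close to those of undetected probes. S100A8 changed by 2.95 in 2D and 0.60 in 3D (difference 2.35), with 3D signals in both lines below their 2D signals (10.15 ± 0.19 in ErbB2* cells and 9.55 ± 0.19 in WT cells). Of the MHC class II genes called in 2D, CD74, HLA-DRA, HLA-DPA1, HLA-DMA and HLA-DMB were higher in 3D too, but not all to the same degree. IFI30 was not, with a 3D change of -0.18, and its difference between the cultures was called. HLA-DRA changed by 3.82 in 2D and 3.98 in 3D (difference -0.16, adjusted p = 0.703). CD74 changed by 4.12 in 2D and 2.24 in 3D, and HLA-DPA1 by 3.03 in 2D and 3.71 in 3D, and for both the difference was called.

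Among the lowest genes SCG5 changed by -4.03 in 2D and 0.34 in 3D, where both lines were high (9.26 ± 0.16 in ErbB2* cells and 8.92 ± 0.05 in WT cells). SNAI2 changed by -2.32 in 2D and 0.46 in 3D, and ADAM19 by -2.33 in 2D and 1.42 in 3D, and both 3D changes were called with the opposite sign. LAD1 changed more in 3D (-3.64) than in 2D (-2.32). TIMP3 and PPP1R14C changed by -2.52 and -2.60 in 3D, and for neither was the difference between cultures called. EGFR changed by -1.52 in 2D and -1.62 in 3D (difference 0.10, adjusted p = 0.691). IL6 changed by 1.82 in 2D and 5.06 in 3D (adjusted p of the difference 3.45e-11). TXNIP was higher in 2D (1.47) and lower in 3D (-2.45), and MAOA likewise (2.09 in 2D and -1.16 in 3D), with adjusted p of the difference 3.91e-13 for TXNIP and 9.05e-13 for MAOA.

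**Figure D5:**
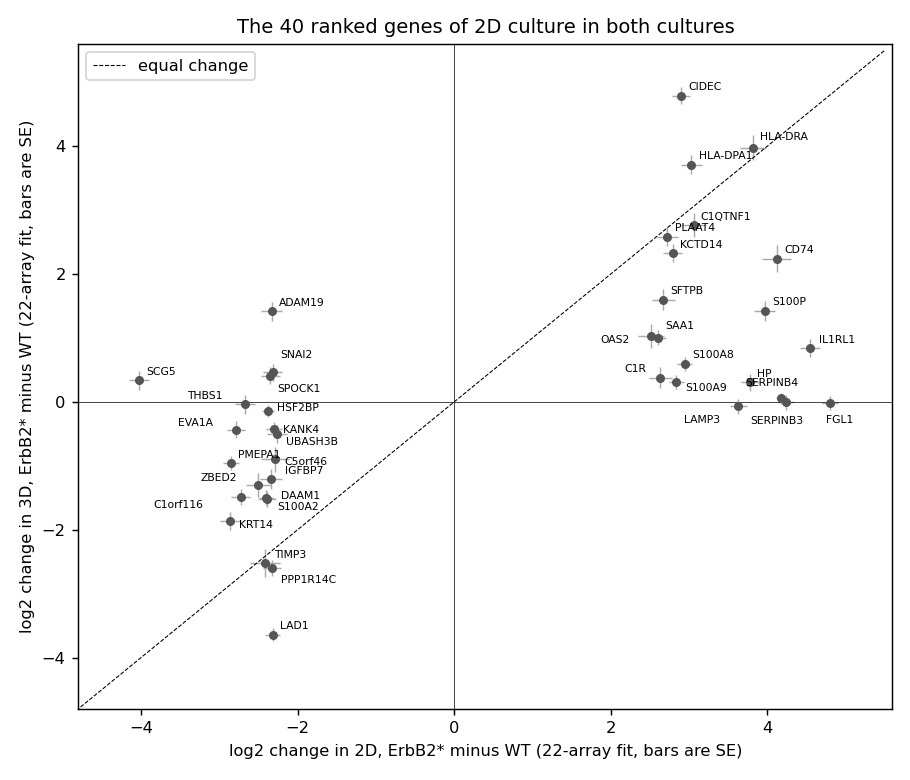
Change (log2, ErbB2* minus WT) of the 40 ranked genes in 2D on the horizontal axis and in 3D on the vertical axis, from the 22-array fit, with SE bars; the dashed line marks equal change. SERPINB3, SERPINB4, LAMP3 and FGL1 lie near 0 in 3D, HLA-DRA lies on the line, and ADAM19 lies above 0 in 3D at 1.42.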

How the data were processed

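Total RNA (RNeasy extraction, biotin labelling by the Illumina TotalPrep kit, per the labels' protocols) was hybridised to Illumina bead arrays with 1 colour, and groups came from the sample titles. The authors deposited an average bead intensity per probe and array on a linear scale with its detection p-value (per the file headers) and a second table of normalised values. Set against the scanner intensities above 1000, these deposited values had slopes of 0.977 to 1.01 per log2 unit, so they were read as log2; how the authors normalised them is not stated by labels or headers. The scanner intensities were background-corrected (normexp, negative-control moments inferred from detection p, offset 16), quantile normalised and taken to log2 (neqc, limma 3.58.1, R 4.3.3) on the 12 arrays. Probes with detection p under 0.05 on at least 5 arrays were kept (15836 of 48803, 13475 with 1 gene symbol in the platform annotation; 28098 probes have 1 symbol, 13 several and 20692 none listed), the brightest probe stood for a gene, and 10208 genes were tested (lmFit, eBayes, two-sided, Benjamini-Hochberg, threshold 0.05). Of these, 2629 had more than 1 passing probe. The number of arrays limits the precision. Genes named for the checks are ERBB2 and the 20 highest and 20 lowest called genes without overlap. The 4 largest called changes of each of 52 gene lists were added. Not all of these list genes are printed above, and other list members are printed by choice. Weak calls among those not printed include HEXA, called in 7 of 25 alternatives, and CHST4, called in 11 of 25. Members and lists were chosen with earlier results of these data known. Same-numbered replicates of the lines correlated between -0.06 and 0.18, so the numbers were not taken to pair samples. The fits were tested on simulated data.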

Additional observations from a re-analysis of the deposited data

Results flagged for a closer look

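Among the 207 named genes, 14 of 414 groups of 6 arrays (3.38%, where chance gives about 5%) held 1 array far from the other 5. In WT cells these were HLA-DRA on replicate 4 (5.99, the others 4.59 to 4.83), PSMB9 on replicate 5 (6.15, the others 4.94 to 5.16), S100A14 on replicate 5 (9.23, the others 9.50 to 9.66) and KLF9 on replicate 4 (8.17, the others 8.64 to 8.90). In ErbB2* cells replicate 4 stood apart for ITGA2 (7.79, the others 8.52 to 8.88), CDK6 (9.07, the others 9.43 to 9.64), NDUFV1 (11.47, the others 11.23 to 11.29) and TSPAN5 (5.95, the others 6.94 to 7.30). Replicate 5 stood apart for AXL (7.54, the others 8.06 to 8.25), ALDH1A3 (6.78, the others 7.0 to 7.09) and ODC1 (12.04, the others 12.21 to 12.24). Replicate 3 stood apart for CRB3 (5.32, the others 5.93 to 6.24) and LIMA1 (7.27, the others 7.92 to 8.28), and replicate 6 for LAMP3 (8.88, the others 8.44 to 8.60).

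The change between the lines differed between 2D and 3D culture in 34 of the 40 ranked genes, by the interaction test (limma, adjusted over all genes). For ERBB2, tested beside them, the difference was not called. Over all tested genes the share was 22.8%, and choosing genes by their 2D change favours a high share. Among genes higher in 2D, the 2D change minus the 3D change was 4.81 for FGL1, 4.25 for SERPINB3, 4.13 for SERPINB4, 3.70 for IL1RL1, 3.70 for LAMP3, 3.47 for HP, 2.54 for S100P, 2.53 for S100A9, 2.35 for S100A8, 2.26 for C1R, 1.88 for CD74, 1.60 for SAA1, 1.48 for OAS2 and 1.07 for SFTPB. The 3D change was the larger one for CIDEC (-1.89) and HLA-DPA1 (-0.68). Among genes lower in 2D, the difference was -4.37 for SCG5, -3.75 for ADAM19, -2.78 for SNAI2, -2.76 for SPOCK1, -2.64 for THBS1, -2.35 for EVA1A, -2.23 for HSF2BP, -1.89 for PMEPA1, -1.87 for KANK4, -1.76 for UBASH3B, -1.40 for C5orf46, -1.24 for C1orf116, -1.20 for ZBED2, -1.13 for IGFBP7, -0.998 for KRT14, -0.90 for S100A2 and -0.87 for DAAM1. It was 1.32 for LAD1, which fell further in 3D.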

How the results depend on the processing

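The counts of called genes (2201, 1234 higher and 967 lower) stayed within 1.5 times under the other settings run, with 2 exceptions. With median scaling 2323 genes were higher and 447 lower, and without WT replicates 1, 5 and 6 there were 1453 lower genes. The count of at least 2-fold calls (447) was 199 without background correction, 242 with normexp and an offset of 50, 125 on the deposited log2 values, 286 with the stricter detection filter (which tests fewer genes) and 692 without WT replicates 1, 5 and 6; the cause was not tested. Leaving out 1 array at a time gave 1863 to 2277 called genes, 1036 to 1271 higher, 818 to 1006 lower and 424 to 475 at least 2-fold. Small list counts also moved with 1 array: WNT genes higher (1) were 0 in 7 of the 12 such fits, p53 targets higher (2) were 1 in 8, NRF2 genes lower (2) were 1 in 9, mucin genes lower (2) were 1 in 7, and Notch genes higher (2) were 1 without ErbB2* replicate 1. Of the 104 list counts (higher and lower), 38 moved by over 1.5 times with median scaling of the arrays. Without WT replicates 2, 3 and 4, 28 of them moved, and without replicates 1, 5 and 6, 24 moved. A fit with the replicate block called 1959 genes, and only replicate 1 of the WT arrays correlated best with its own number. The interaction called 1579 genes on all 23 arrays, with the dim WT 3D replicate 5 put back, and 2104 with the replicate block on 22 arrays, against 2324. The deposited values gave -2.03 for SCG5, against -4.04. All 40 ranked genes were called under every setting that tested them; the stricter filter left 22 of them out. No named gene reversed its sign among called values. The chip as a block was not run, since the headers name no chip. Signal over background limits the lowest genes: a fold against an undetected line is a bound.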
